A study of Mus musculus with 8 samples.

Results

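The 9 MHC class II presentation genes H2-Aa, H2-Ab1, H2-Eb1, Cd74, H2-DMa, H2-DMb1, H2-DMb2, Ciita and Ifi30 were followed by gene symbol in a table of 35583 genes. Each symbol matched 1 row. The libraries came from microglia, the resident macrophages of the brain, sorted out of the hypothalamus, and the mice were young, wild-type and had received dye-carrying plasma protein 20 hours earlier. Plasma-positive and plasma-negative microglia were each sequenced as 4 bulk libraries, and every mouse in both groups had the same genotype and the same injection. The comparison asks how the transcripts of the class II pathway differed between microglia that carried the plasma label and those that did not. The labels do not give the sex, the exact age, the sorting markers or the number of animals per library. Total counts ran from 2963094 in plasma-negative replicate 4 to 21422738 in plasma-negative replicate 1.

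MHC class II molecules carry peptides from ingested proteins to the cell surface, where CD4+ T cells read them. The α and β chains assemble on the invariant chain, which is then cut down by lysosomal proteases, and a peptide exchange factor swaps its last fragment for a peptide. The genes of the class II chains, the invariant chain and the exchange factor are switched on by the coactivator CIITA, which interferon gamma induces in macrophages. Microglia of a healthy young brain are known for low class II levels.

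Levels are given as CPM, read counts brought to a common library size with TMM factors. None of the 9 genes differed between the groups past the threshold used here, an adjusted p under 0.05 in edgeR's quasi-likelihood test over all 13277 genes tested. H2-Eb1, a class II β chain, had the most negative change, with a mean of 1.96 CPM in plasma-positive against 13.5 CPM in plasma-negative libraries. Without plasma-negative replicate 3 the latter mean was 5.54 CPM and the log2 change went from -2.79 to -1.50. The 3 chains of the peptide exchange factor and the thiol reductase Ifi30 had higher means in plasma-positive libraries, by 0.22 to 0.37 on the log2 scale. The classical chains and Cd74 were low, and H2-Ab1 and Cd74 spread more among the 4 plasma-negative than among the 4 plasma-positive libraries.

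Of the 9 genes, 8 had enough counts to be tested and Ciita did not. Without adjustment, 2 of the 8, H2-Eb1 and H2-DMa, had p under 0.05, as did 1831 of the 13277 tested genes. For background, 0.844% of all tested genes were called higher and 0.565% lower in plasma-positive libraries, or 1.41% in either direction. The log2 change was positive for 5 of the 8 genes, and its median was 0.16, against 0.01 for all tested genes. That contrast was not stable: the members' median was -0.02 without plasma-negative replicate 4 and 0.31 without plasma-negative replicate 3, and with length and GC offsets both medians were 0.12. In none of the 9 did the 4 CPM values of one group lie wholly above those of the other, whereas this held for 10.3% of all tested genes. DESeq2 called 1 of the members, H2-Eb1, and 6.49% of all 14863 genes it tested, and limma on the logged RPKM values called none.

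**Figure D1:**
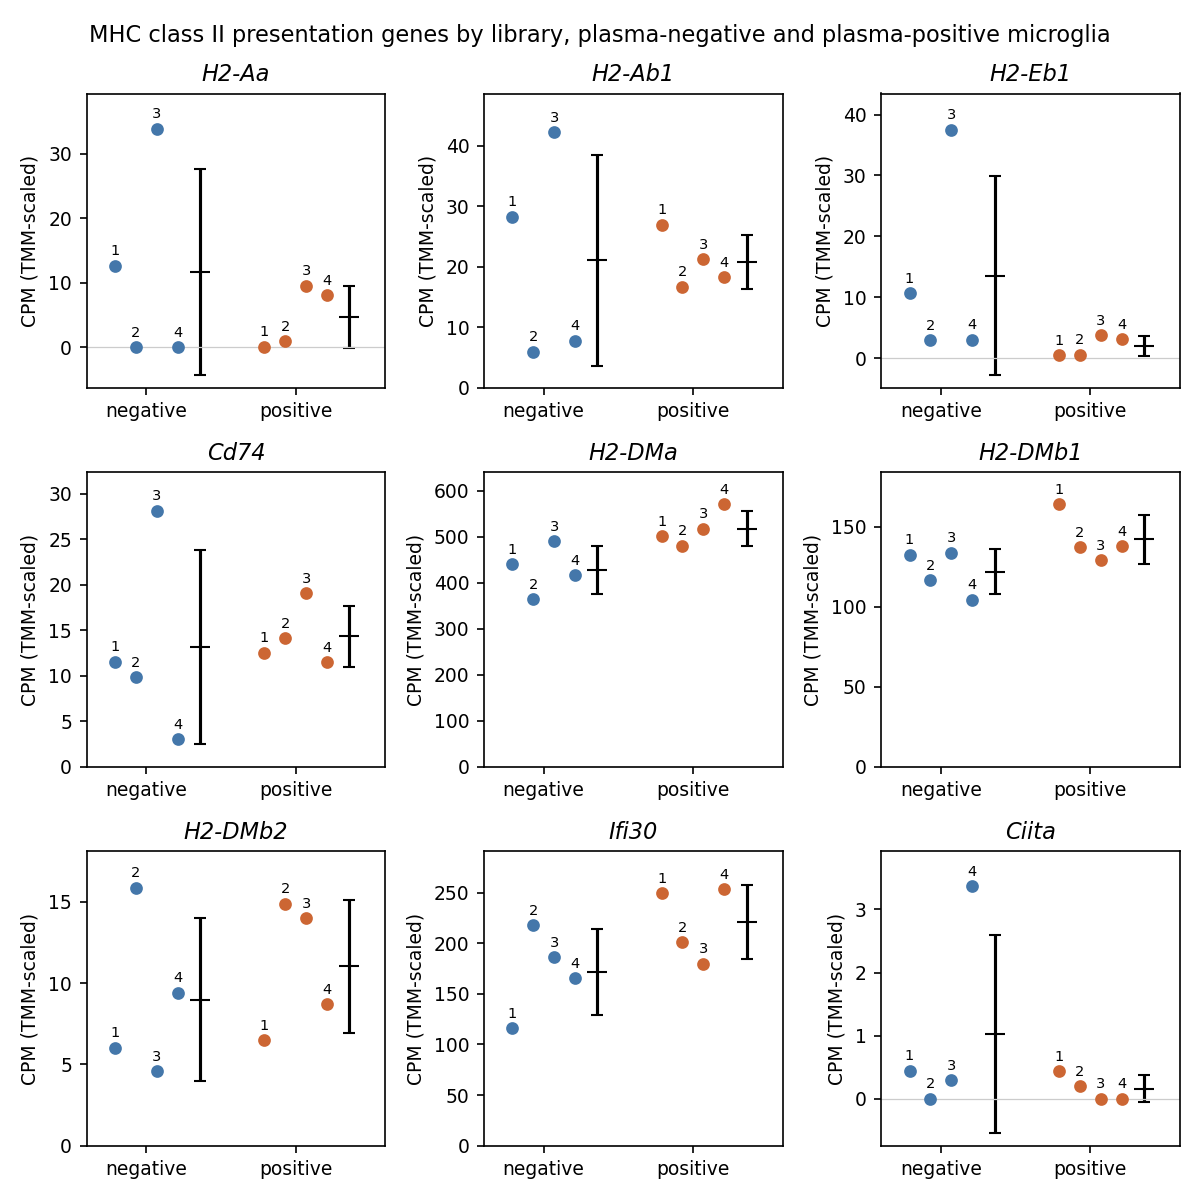
Each panel plots CPM (TMM-scaled, linear axis) of 1 gene in the 4 plasma-negative (blue) and 4 plasma-positive (orange) libraries, numbered by replicate. The horizontal tick and bar are the mean and SD (n = 4). The groups overlap in all 9 panels, and plasma-negative replicate 3 is the highest library for H2-Aa, H2-Ab1, H2-Eb1 and Cd74.

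Of these genes, 6 (H2-DMa, H2-DMb2, H2-DMb1, H2-Ab1, H2-Aa and H2-Eb1) lie on chromosome 17 of mm10 between positions 34119541 and 34316674, a stretch of 197.1 kb that is the class II region of the mouse MHC. Their promoters are known to share a short array of motifs, among them the Y box bound by NF-Y and the X box bound by the RFX complex, on which CIITA docks. The 120 bases before the start are shown for H2-Aa and H2-Eb1, since these chains moved most nearly together across the 8 libraries (Pearson r = 0.94 for deviations from the group means). They come from RefSeq promoters on GRCm38.p6, read 5′ to 3′ along each gene. Capitals mark the Y box core GATTGG or its reverse complement CCAATC.
H2-Aa, chr17:34287824-34287943, minus strand: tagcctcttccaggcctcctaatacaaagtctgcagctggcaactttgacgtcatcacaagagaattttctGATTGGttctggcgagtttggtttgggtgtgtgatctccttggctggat
H2-Eb1, chr17:34305747-34305866, plus strand: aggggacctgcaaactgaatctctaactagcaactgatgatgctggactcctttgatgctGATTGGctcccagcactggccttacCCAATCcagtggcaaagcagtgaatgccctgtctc
The H2-Aa match starts at position -49 and the first H2-Eb1 match at position -60, counted from the start site. H2-Eb1 holds a second match on the other strand, starting at position -35.

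Promoters of 6 of the 9 genes were in the table: H2-Aa, H2-Eb1, H2-DMa, H2-DMb1, H2-DMb2 and Ifi30. Windows of 300 bases, from 250 before to 50 after the start, were searched on both strands for GATTGG and for the X box core CCTAGNNAC. No match to one overlapped a match to the other at these genes. GATTGG was found at H2-Aa, H2-Eb1, H2-DMb1, H2-DMb2 and the downstream of the 2 listed starts of H2-DMa, and not at Ifi30. Over all 32851 promoters, 16.11% held it. CCTAGNNAC was found only at H2-DMb1, starting at position -98, and in 3.91% of all promoters. Both cores together were in 0.54% of promoters, and H2-DMb1 was the only one of the 6 genes with both. Only these exact letters were searched. The H2-Eb1 sequence shown above holds actagcaac, which differs from the X box core in its first letter. The search can thus miss variant X boxes, and no match does not mean that a promoter lacks one. A match of these letters is a description of the sequence and does not show that a factor binds there.

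Among the classical chains, H2-Aa (ENSMUSG00000036594, chromosome 17, 34282744 to 34287823, minus strand) encodes the α chain of I-A. Its level was 12.7, 0, 33.8 and 0 CPM in plasma-negative replicates 1 to 4, and 0.110, 0.915, 9.54 and 8.04 CPM in plasma-positive replicates 1 to 4. The 2 plasma-negative libraries at 0 were the lowest of the 8, and plasma-negative replicates 3 and 1 the highest. With 0 counts, a floor of 3 counts allows up to 0.189 CPM in plasma-negative replicate 2 and up to 1.01 CPM in the shallower replicate 4, for counting error only. In the fit, the log2 change was -1.33 (SE 1.55), with an adjusted p of 0.781 and a 95% interval from -4.73 to 2.06. Without plasma-negative replicate 3 the change was 0.11, and its sign also turned in other alternatives.

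H2-Ab1 (ENSMUSG00000073421, chromosome 17, 34257689 to 34269419, plus strand) encodes the β chain that pairs with it. Its CPM was 28.2, 5.92, 42.3 and 7.74 in plasma-negative and 27.0, 16.7, 21.2 and 18.2 in plasma-positive replicates 1 to 4. The 4 plasma-positive libraries fall within the range of the plasma-negative ones, and the group means were nearly equal, 21.04 ± 17.4 CPM (SD, n = 4) against 20.8 ± 4.54 CPM (SD, n = 4). The log2 change was -0.04 (SE 0.55, adjusted p = 0.987), and the interval from -1.25 to 1.18 leaves room for a change of more than 2-fold either way. It was 0.55 without plasma-negative replicate 3.

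H2-Eb1 (ENSMUSG00000060586, chromosome 17, 34305867 to 34316674, plus strand) encodes the β chain of I-E. Its 2 highest levels were both plasma-negative, 37.5 CPM in replicate 3 and 10.6 CPM in replicate 1, and replicates 2 and 4 held 2.96 and 3.03 CPM. Plasma-positive replicates 1 to 4 held 0.440, 0.559, 3.71 and 3.13 CPM, so the groups met at about 3 CPM. Behind these values stood 9 to 644 counts per plasma-negative library and 4 to 73 counts per plasma-positive library. The log2 change was -2.79 (SE 1.0, unadjusted p = 0.0168, adjusted p = 0.226), with a 95% interval from -4.98 to -0.60. DESeq2 gave -2.82 with an adjusted p of 0.0494, just past the threshold. Over the alternatives the change stayed negative, from -3.32 to -1.34, with adjusted p from 0.0494 to 0.624. It was -1.50 without plasma-negative replicate 3.

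Cd74 (ENSMUSG00000024610) encodes the invariant chain, the chaperone that blocks the peptide groove until the molecule reaches the endosome. Its level was 11.6, 9.82, 28.1 and 3.03 CPM in plasma-negative replicates 1 to 4. In plasma-positive replicates 1 to 4 it was 12.5, 14.1, 19.1 and 11.5 CPM. All 4 plasma-positive libraries lay between the lowest and the highest plasma-negative ones. For Cd74 the log2 change was 0.11 (SE 0.56, adjusted p = 0.961), with an interval from -1.12 to 1.34. Leaving out plasma-negative replicate 3 gave 0.79, leaving out plasma-negative replicate 4 gave -0.20, and scaling by library totals only gave -0.02. Neither fit without 1 of these libraries passed the threshold. The gene lies on chromosome 18 of mm10, 60803848 to 60812652, plus strand.

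**Figure D2:**
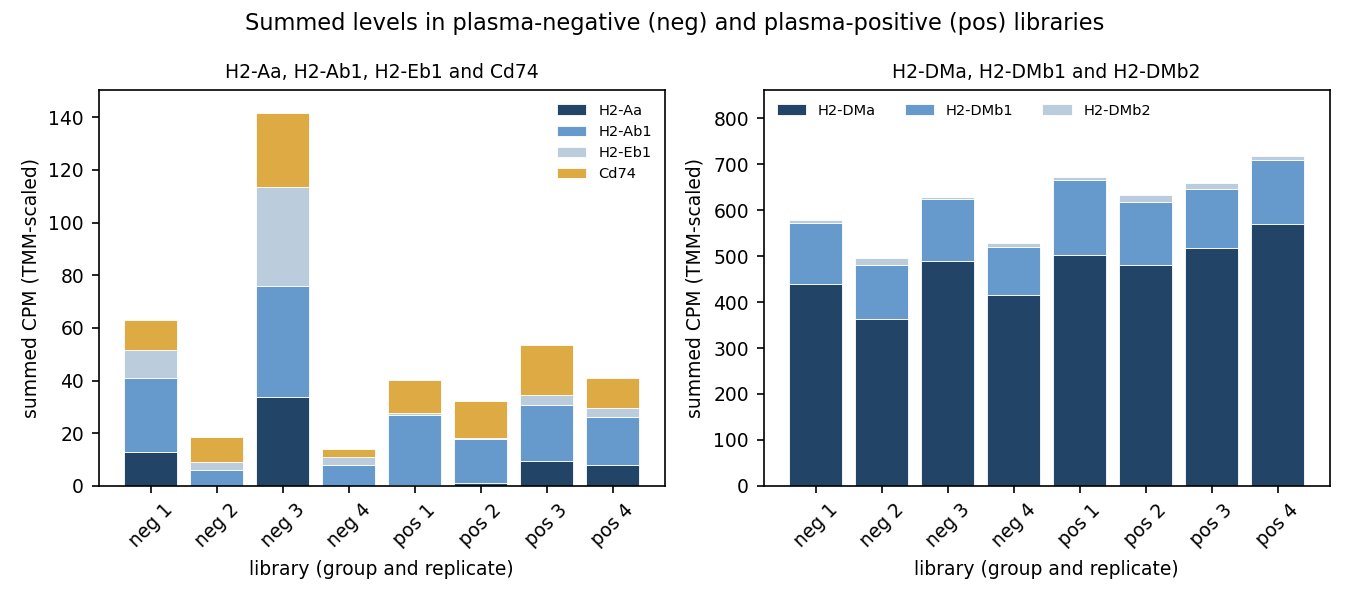
Stacked bars give the summed CPM (TMM-scaled, from 0) of the classical chains with Cd74 (left) and of the peptide exchange chains (right) in each library. The left sums run from 13.8 to 141.7 CPM among plasma-negative and from 32.3 to 53.5 CPM among plasma-positive libraries, and the right sums from 496 to 628 and from 633 to 717 CPM.

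Summed over H2-Aa, H2-Ab1 and H2-Eb1, the classical chains gave 51.5, 8.87, 113.6 and 10.8 CPM in plasma-negative and 27.5, 18.1, 34.5 and 29.4 CPM in plasma-positive replicates 1 to 4. The highest plasma-negative library thus held 12.8 times the lowest, against 1.90 times among plasma-positive libraries. Without plasma-negative replicate 3 the first ratio was 5.81, and without plasma-positive replicate 2 the second was 1.25. With all libraries, the coefficient of variation was larger in the plasma-negative group for each: 137% against 104% for H2-Aa, 82.7% against 21.9% for H2-Ab1, and 121% against 86.9% for H2-Eb1. It was 81.1% against 23.5% for Cd74. The order turned for H2-Eb1 without plasma-negative replicate 3 (79.6%) and for H2-Aa without plasma-positive replicate 3 (144% in that group) or 4 (148%). For Cd74 the plasma-positive value was 10.4% without replicate 3. For H2-Aa the plasma-positive libraries themselves ran over an 86.7-fold range, or 10.4-fold without plasma-positive replicate 1, which held 1 count. With 4 libraries a group, this difference in spread is given as a description, with no test. In bulk libraries, a lower level of a transcript can come from fewer cells of a type or from less RNA per cell, and these cannot be told apart.

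Across the 8 libraries, deviations from the group means in log2 CPM correlated positively among H2-Aa, H2-Ab1, H2-Eb1 and Cd74, with Pearson r from 0.68 to 0.94 over their 6 pairs. For H2-DMa, r was 0.81 with H2-Aa, 0.84 with H2-Eb1 and 0.76 with H2-Ab1, but 0.41 with Cd74. Ifi30 had r between -0.43 and 0.07 for its 7 pairs. These values share libraries, depths and scaling, are over 8 points, and carry no p. Among 5173 other tested genes with a mean of at least 32 CPM, the deviations most like those of H2-Aa were those of Acp6 (r = 0.97), Pdgfa (r = 0.97) and Col27a1 (r = 0.96). As the highest of 5173 values over 8 points, these were picked for their size and can be high by selection alone.

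The other genes were read for the cells that are known to express class II strongly. All 10 microglial markers, such as P2ry12 and Tmem119, were above 0 in every library, with summed levels of 67573 to 80195 CPM in plasma-negative and 75285 to 81248 CPM in plasma-positive libraries. Of 10 markers of border-associated macrophages, 6 to 8 were at 0 in each library, and Cd163, Lyve1, Cd209f and F13a1 were at 0 in all 8. Their sum was 207.6 to 266.9 CPM in plasma-negative and 180.9 to 237.5 CPM in plasma-positive libraries, nearly all of it from Stab1, a scavenger receptor. Mrc1, the mannose receptor and the other tested marker of the list, had 1.90, 0, 0 and 2.36 CPM in plasma-negative and 1.76, 12.1, 1.42 and 15.3 CPM in plasma-positive replicates 1 to 4, with a log2 change of 2.93 that was not called (adjusted p = 0.429).

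Of 10 dendritic cell markers, 4 to 6 were at 0 in each library, and Cd209a and Clec10a were at 0 in all. They summed to 41.1, 50.7, 55.0 and 24.6 CPM in plasma-negative replicates 1 to 4 and to between 40.0 and 48.7 CPM in plasma-positive libraries. The highest sum was thus in plasma-negative replicate 3, which also held the most H2-Aa, H2-Eb1 and Cd74, and the lowest in replicate 4. Replicate 2, with the second highest sum of its group, held the lowest classical chain sum of all 8 libraries, 8.87 CPM. Batf3, a dendritic cell transcription factor and the largest part of the sum, had the same order in the plasma-negative replicates, at 22.1, 24.5, 28.6 and 15.8 CPM, and Irf4 also peaked in replicate 3. Flt3 and Zbtb46 did not. Flt3, a receptor of the lineage, had 0.398, 0, 1.22 and 3.36 CPM in plasma-negative and 1.98, 0.508, 0 and 0 CPM in plasma-positive replicates 1 to 4. Zbtb46, another transcription factor of the lineage, was highest in plasma-negative replicate 2, at 16.2 CPM, and stood at 5.36 CPM in replicate 3. Itgax, the CD11c integrin, was higher in every plasma-positive library (10.6 to 20.7 CPM) than in plasma-negative replicates 1 to 4 (6.55, 1.70, 9.96 and 0 CPM, again highest in replicate 3), with a log2 change of 1.77 that was not called (adjusted p = 0.384). Ccr7 had 100 counts in plasma-positive replicate 3 and 0 elsewhere. Xcr1 had 59 counts in that library, 2 in plasma-positive replicate 1 and 0 elsewhere. The part of dendritic cells in the class II levels was not tested. B cell markers Ms4a1, Pax5 and Fcrla were at 0 in all 8 libraries. The 6 B cell markers in the table summed to 30.1 to 85.0 CPM in plasma-negative and 54.0 to 94.5 CPM in plasma-positive libraries, mostly from Cd79b. Of 8 T cell genes, Cd3d, Cd3e, Cd3g, Cd4 and Cd8a were at 0 in all libraries, and Trac, Trbc2 and Ms4a4b in all plasma-negative ones. Trbc2 had 23 counts in plasma-positive replicate 2 and 1 in replicate 3, and Trac and Ms4a4b had 11 counts each in replicate 3. The T cell sum was 1.17 CPM in each of these 2 libraries. The 8 monocyte markers summed to at most 14.9 CPM in plasma-negative libraries. In plasma-positive libraries they reached 54.2 CPM in replicate 3 and at most 1.93 CPM in the other 3.

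The peptide exchange factor H2-M, a non-classical class II molecule, sits in endosomes and edits which peptides stay bound. H2-DMa (ENSMUSG00000037649, chromosome 17, 34119541 to 34139101, plus strand) encodes its α chain. Its level was 440, 364, 490 and 416 CPM in plasma-negative and 502, 481, 517 and 571 CPM in plasma-positive replicates 1 to 4. Of the 4 plasma-positive libraries, 3 lay above every plasma-negative one, and plasma-positive replicate 2 lay just below plasma-negative replicate 3. The means were 427 ± 52.6 CPM (SD, n = 4) and 518 ± 38.6 CPM (SD, n = 4). The log2 change was 0.28 (SE 0.11, unadjusted p = 0.0232), and with an adjusted p of 0.260 the gene was not called. The 95% interval ran from 0.04 to 0.51.

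Of the H2-DMa exon length, 10.4% overlaps Brd2 on the other strand, and whether counting used strand is not given in the sources used here. Brd2 itself had a log2 change of 0.22 (adjusted p = 0.715), with means of 107.9 and 126.0 CPM. The 3 genes whose deviations were most like those of H2-DMa were Lman1 (r = 0.96), Twnk (r = 0.95) and Acaa2 (r = 0.95). The measure and the 5173 genes were those used for H2-Aa, and these values too can be high by selection alone.

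H2-DMb1 (ENSMUSG00000079547, chromosome 17, 34153072 to 34160230, plus strand) encodes a β chain of the exchange factor. It stood at 132, 116, 134 and 104 CPM in plasma-negative and 164, 137, 129 and 138 CPM in plasma-positive replicates 1 to 4. Only plasma-positive replicate 3 fell among the plasma-negative values. Its log2 change was 0.22 (SE 0.14, adjusted p = 0.542, 95% interval from -0.09 to 0.53).

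H2-DMb2 (ENSMUSG00000037548, chromosome 17, 34143307 to 34151555, plus strand) is the neighbouring copy and encodes the alternative β chain. Its level was 6.02, 15.9, 4.60 and 9.42 CPM in plasma-negative and 6.49, 14.9, 14.0 and 8.71 CPM in plasma-positive replicates 1 to 4. Each group held both low and high libraries, and the log2 change was 0.30 (SE 0.54, adjusted p = 0.873, 95% interval from -0.87 to 1.48). The change was 0.083 without plasma-negative replicate 3 and 0.745 without plasma-negative replicate 2.

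The 2 β genes are near copies: their longest annotated transcripts were identical at 87.7% of 1144 aligned columns, and their promoters at 77.4% of 270. Of all 50-base windows of H2-DMb1 transcripts, 22.7% also occur in H2-DMb2, and 21.2% the other way, so how reads were split between them is uncertain. H2-DMb2 took 4.35%, 11.99%, 3.33% and 8.28% of the counts of both in plasma-negative and 3.80%, 9.80%, 9.78% and 5.95% in plasma-positive replicates 1 to 4. Wilson 95% intervals were 2.68 to 4.13% for the lowest of these and 10.7 to 13.5% for the highest, both of them plasma-negative libraries. The groups overlapped. Deviations of H2-DMb2 ran against those of H2-DMb1 (r = -0.74), H2-Ab1 (r = -0.84) and H2-DMa (r = -0.79).

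**Figure D3:**
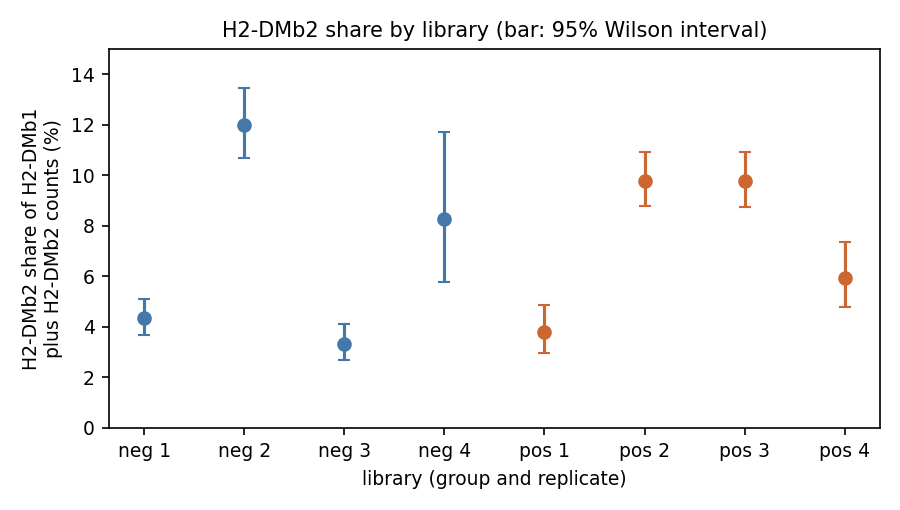
Points give the H2-DMb2 share (%) of the counts of H2-DMb1 and H2-DMb2 in each library, and bars the 95% Wilson interval, which covers counting error only. Shares run from 3.33% to 11.99% among plasma-negative (blue) and from 3.80% to 9.80% among plasma-positive (orange) libraries.

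Summed over the 3 genes, the exchange chains gave 578, 496, 628 and 529 CPM in plasma-negative and 672, 633, 660 and 717 CPM in plasma-positive replicates 1 to 4. Whether the groups overlapped in this sum depended on the scaling: they did not with TMM or upper-quartile factors, and they did with relative log expression factors or library totals only. With totals only, 1 of the 4 plasma-positive sums lay above the highest plasma-negative one, 663 CPM in replicate 3. The means were 558 ± 57.9 CPM and 671 ± 35.3 CPM (SD, n = 4 each). The sum was formed with the values in view and was not tested.

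Ciita (ENSMUSG00000022504, chromosome 16, 10480059 to 10528418, plus strand) encodes the master coactivator of class II transcription. It had 10, 0, 5 and 10 counts in plasma-negative and 4, 4, 0 and 0 counts in plasma-positive replicates 1 to 4, and was too low to be tested. In CPM this was 0.443, 0, 0.291 and 3.36 against 0.440, 0.203, 0 and 0. The highest value came from the library with the fewest counts, plasma-negative replicate 4, in which 1 count is worth 0.336 CPM. Of its exon length, 3.5% overlaps Dexi on the other strand. At these low counts a difference in Ciita was not detectable: with no filter on low counts the log2 change was -2.57 (SE 2.25, adjusted p = 0.590).

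Ifi30 (ENSMUSG00000031838, chromosome 8, 70762774 to 70766663, minus strand) encodes GILT, the lysosomal thiol reductase that opens disulfide bonds of ingested proteins. It stood at 116, 217, 186 and 166 CPM in plasma-negative and 250, 201, 180 and 253 CPM in plasma-positive replicates 1 to 4. Plasma-positive replicates 1 and 4 lay above all plasma-negative libraries and the other 2 among them. The means were 171 ± 42.7 CPM and 221 ± 36.2 CPM (SD, n = 4 each). Ifi30 had a log2 change of 0.37 (SE 0.19, unadjusted p = 0.0776, adjusted p = 0.432), with a 95% interval from -0.05 to 0.78. Of its exon length, 8.7% overlaps 6330537M06Rik on the other strand, a gene with a log2 change of 0.87 (adjusted p = 0.362) and means of 8.95 and 16.4 CPM.

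Per kilobase of exon, the mean level in plasma-negative libraries was 175 ± 43.5 CPM per kb for Ifi30, 124 ± 15.3 for H2-DMa and 72.4 ± 8.35 for H2-DMb1 (SD, n = 4). The gap between Ifi30 and H2-DMa was little more than the SD of Ifi30, and H2-DMb1 lay below both by more than its SD. A wide gap followed. H2-Ab1 had 8.19 ± 6.78, Cd74 7.82 ± 6.34, H2-Eb1 6.96 ± 8.43, H2-DMb2 5.14 ± 2.87 and H2-Aa 3.06 ± 4.20 CPM per kb (SD, n = 4), and these 5 did not differ from their neighbours in the order beyond their SD. Ciita was lowest, at 0.107 ± 0.165 CPM per kb, with 0.353 in plasma-negative replicate 4. For H2-Ab1, Cd74, H2-Eb1 and H2-Aa, plasma-negative replicate 3 raised the means most, at 16.5, 16.7, 19.3 and 8.91 CPM per kb. In plasma-positive libraries the order began in the same way, with Ifi30 at 225 ± 36.9, H2-DMa at 150 ± 11.2 and H2-DMb1 at 84.5 ± 9.06 CPM per kb. Cd74 (8.53 ± 2.0), H2-Ab1 (8.09 ± 1.77) and H2-DMb2 (6.31 ± 2.33) followed, each within about 1 SD of the next. H2-Aa (1.22 ± 1.27) and H2-Eb1 (1.01 ± 0.875) came below them without differing from each other beyond their SD, and Ciita was lowest at 0.0169 ± 0.0220 CPM per kb.

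**Figure D4:**
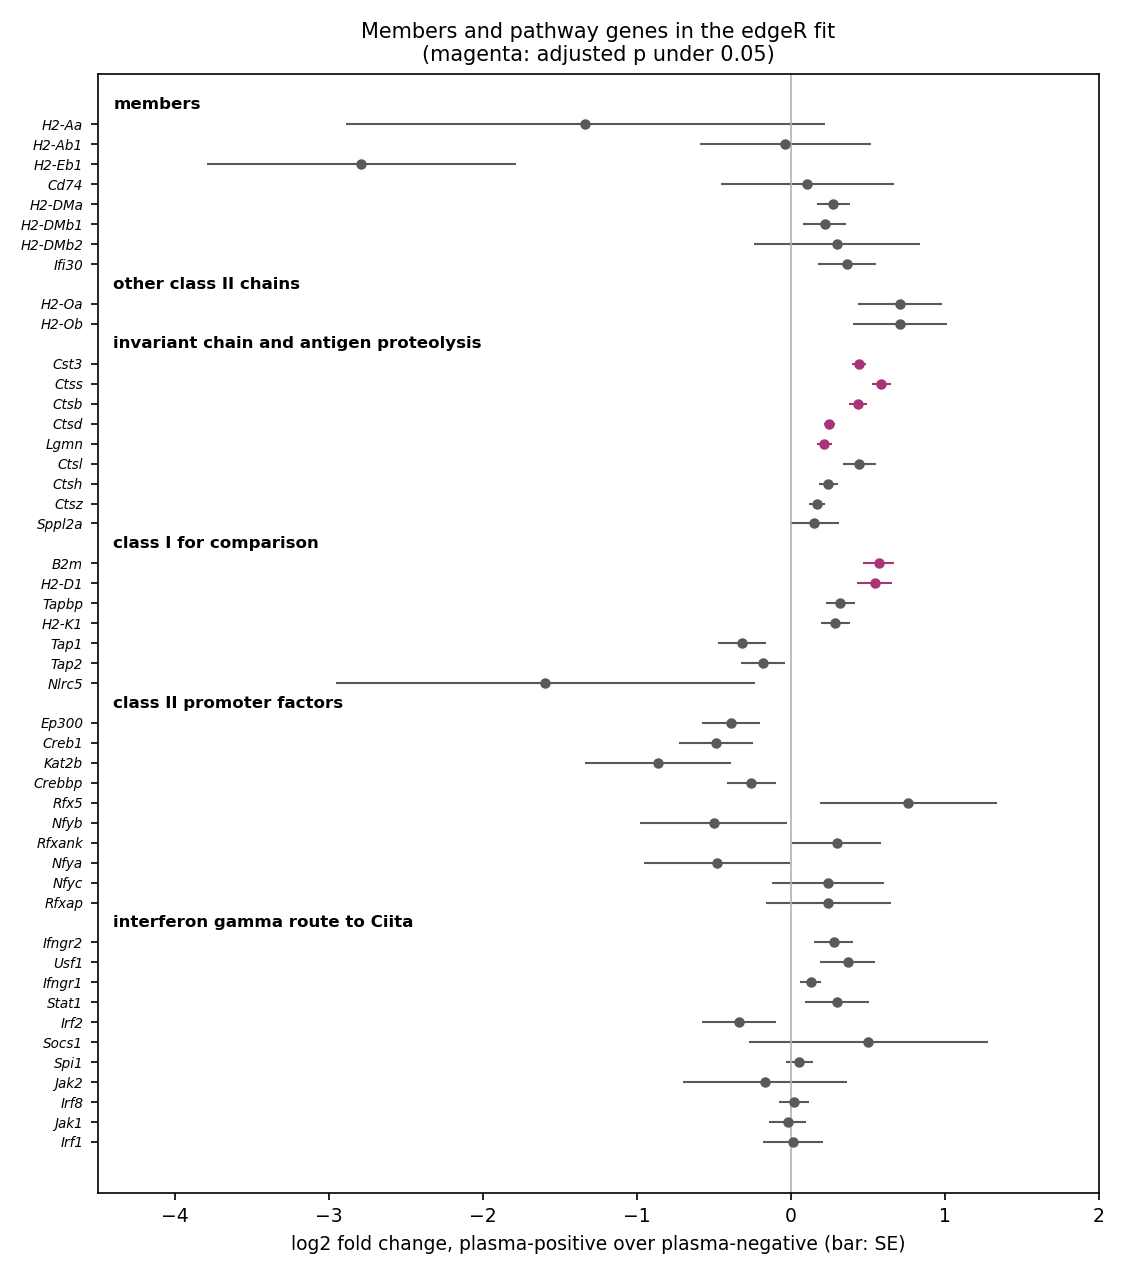
Points give the log2 fold change (plasma-positive over plasma-negative) in the edgeR fit for the 8 tested members and for pathway genes, and bars the SE. Magenta points, those drawn with an adjusted p under 0.05, are Cst3, Ctss, Ctsb, Ctsd and Lgmn among the proteolysis genes and B2m and H2-D1 among the class I genes, and no member is among them. Cd63, the remaining called gene, belongs to a list that is not drawn.

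Around these genes, 7 lists of class II pathway and comparison genes held 49 further tested genes, of which 8 rose in plasma-positive libraries and none fell. Over all tested genes, 0.844% were called higher and 0.565% lower, the background for each of these lists. The lists were chosen with earlier results of these data known. In the list of invariant chain and antigen proteolysis genes, 5 of 9 rose, all 9 log2 changes were positive, and their median was 0.25. Cathepsin S (Ctss), the protease known for the last cuts of the invariant chain, held 6569, 6942, 6355 and 7799 CPM in plasma-negative replicates 1 to 4. In plasma-positive replicates 1 to 4 it held 10596, 10251, 9689 and 11060 CPM, all above every plasma-negative library. Its log2 change was 0.59 (SE 0.06, adjusted p = 0.0016). Cst3, which encodes the cathepsin inhibitor cystatin C, rose by 0.44 (SE 0.05, adjusted p = 0.0016), from 31913 ± 1931 to 43396 ± 2508 CPM (SD, n = 4 each). Cathepsins B and D rose as well, Ctsb by 0.44 (adjusted p = 0.0049) and Ctsd by 0.25 (adjusted p = 0.0057). Lgmn, the asparagine endopeptidase, passed narrowly with 0.22 (adjusted p = 0.0456), and it was called in 6 of the 20 alternatives.

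Leaving out 1 library at a time left 4 to 8 of the 49 called. There were 4 without plasma-negative replicate 3 or plasma-positive replicates 1, 2 or 4, and 5 without plasma-negative replicates 1 or 2 or plasma-positive replicate 3. Ctss, Cst3, Ctsb and Ctsd were called in all 8 of these fits, and Lgmn in 1. With offsets for exon length and GC content, Cst3 (log2 change 0.38, adjusted p = 0.0754) and Ctsd (log2 change 0.20, adjusted p = 0.181) lost their calls, Ctss and Ctsb did not, and 4 of the 49 were called. Markers of other brain cells were read beside these genes. The 6 neuronal markers summed to 2.69 to 29.1 CPM in plasma-negative and 13.7 to 221 CPM in plasma-positive libraries, and the 5 oligodendrocyte markers to 146 to 230 and 221 to 466 CPM, so both sums overlapped between the groups. The neuronal value of 221 CPM came from plasma-positive replicate 2, and the other 3 plasma-positive libraries held at most 55.9 CPM. The oligodendrocyte value of 466 CPM came from the same library, and plasma-positive replicates 1, 3 and 4 held 281, 269 and 221 CPM. Of these markers, Pomc alone was called, higher in plasma-positive libraries. It had 0 counts in every plasma-negative library and 19, 21, 134 and 101 counts in plasma-positive replicates 1 to 4. Its fitted log2 change of 9.27 thus rests on a group at 0. The 5 astrocyte markers summed to 208 to 319 CPM in plasma-negative and 188 to 199 CPM in plasma-positive libraries, nearly all of it from Slc1a3, and none was called. Of the microglial markers, Csf1r rose by 0.28 and Olfml3 by 0.37, and the other 8 of 10 were not called. Across 5176 genes of at least 32 CPM, log2 changes fell with exon length (Spearman -0.46, a correlation across genes, which are not replicates). The part of the cell markers in the changes was not tested.

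The 2 tested chains of H2-O, the inhibitor of H2-M, were H2-Oa and H2-Ob, and neither passed. H2-Oa held 42.1, 30.3, 33.9 and 67.6 CPM in plasma-negative and 78.3, 51.8, 81.7 and 69.5 CPM in plasma-positive replicates 1 to 4, with a log2 change of 0.71 (SE 0.27, adjusted p = 0.258). H2-Ob had 39.5, 31.97, 24.0 and 62.9 against 74.3, 81.3, 47.6 and 52.5 CPM, with a log2 change of 0.71 (SE 0.30, adjusted p = 0.327). In both, plasma-negative replicate 4 was the highest of its group and lay among the plasma-positive libraries. These chains were singled out after their values were seen, and both had an unadjusted p under 0.05.

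Upstream of the members, the promoter factors (the RFX and NF-Y subunits, CREB1 and their histone acetyltransferases) gave no call among 10 tested genes, with 4 positive log2 changes and a median of -0.32. The interferon gamma route to Ciita gave none among 11, with 8 positive and a median of 0.06. Costimulatory genes gave none among the 4 tested of 6. Of class II turnover and surface partners, 1 of 6 rose: Cd63, a tetraspanin of late endosomes, at 152 ± 23.6 against 236 ± 22.8 CPM (SD, n = 4 each), with a log2 change of 0.64 and an adjusted p of 0.0452. It was called in 1 of the 8 fits with a library left out, and in 7 of all 20 alternatives.

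For comparison, 2 of 7 MHC class I genes rose. B2m, the light chain of class I molecules, went from 2037 ± 203 to 3023 ± 409 CPM (SD, n = 4 each), a log2 change of 0.57 (SE 0.10, adjusted p = 0.0186). H2-D1, a heavy chain with near copies in the genome, went from 719 ± 112 to 1049 ± 106 CPM (SD, n = 4 each), a log2 change of 0.54 (SE 0.11, adjusted p = 0.0376). With a library left out, B2m was called in 3 and H2-D1 in 1 of 8 fits. Over all 20 alternatives, B2m was called in 15 and H2-D1 in 11. The class II members and these class I genes were not compared by a test of their difference.

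**Figure D5:**
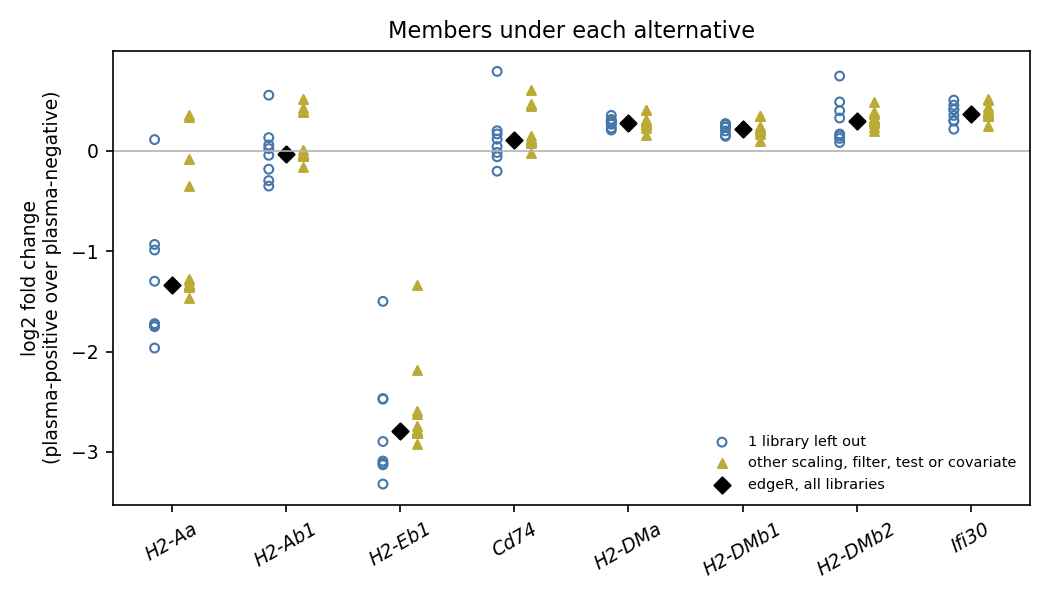
For each tested member, the log2 fold change (plasma-positive over plasma-negative) is plotted for edgeR with all libraries (black diamond), for fits without 1 library (blue circles) and for other scalings, filters, tests and covariates (yellow triangles). H2-DMa, H2-DMb1, H2-DMb2 and Ifi30 stay above 0 and H2-Eb1 below 0 in all 20 alternatives, while H2-Aa, H2-Ab1 and Cd74 fall on both sides of 0.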

How the data were processed

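RNA of sorted microglia was extracted with a micro-scale kit and made into Smart-seq2 libraries, a full-length method without molecular identifiers, per the labels' protocols. The deposited count table gives whole-number read counts per gene, and the deposited RPKM table lists the same 35583 genes in reads per kilobase of exon, relative to library size, per the file headers. The submitters' processing notes name bcl2fastq, Trim Galore, STAR, HTSeq and build mm10. Versions, strand setting and treatment of multi-mapping reads are not given in the sources used here. Each deposited table also has 8 StDev columns, which were not used. Of the gene identifiers, 35546 were in GENCODE M21, which gave exon lengths and overlaps.

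Groups and replicate numbers came from the sample titles. The labels do not say that libraries came from separate animals, so p-values set the group difference only against the spread between these libraries, which may be technical. The group effect on counts was tested in R 4.3.3 by edgeR 4.0.16 (TMM factors, default expression filter, quasi-likelihood F test of group), with Benjamini-Hochberg adjustment over all 13277 tested genes and a threshold of 0.05. The standard error is the log2 change over the square root of F. CPM uses TMM-scaled library sizes. With amplified reads, the Wilson intervals and the floor of 3 counts cover counting error only. The 95% intervals of log2 changes use the standard error above, which takes in the spread between these libraries. The shallowest library, with 2963094 counts, limits the low members most. The test was checked on simulated data.

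Alternatives were scaling by totals only, by upper quartile or by relative log expression, no filter or 1 CPM in 4 libraries, DESeq2 1.42.0, limma 3.58.1 on log2 of RPKM plus 0.1 or plus 1, a block on the replicate number, exon length offsets (loess span 0.3) without and with that block, and leaving out each library in turn. Offsets for length and GC together were chosen after seeing the data.

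The members and lists were chosen with earlier results of these data known. All 9 members are named. In each pathway list the genes past the threshold are named, or the 4 with the smallest p where more than 4 passed. For the most abundant exchange chain and for H2-Aa, the 3 genes of at least 32 CPM with the most similar deviations are named. Lgmn, H2-Oa, H2-Ob and the marker genes were named beyond this rule, after their values were seen. Protein sequences were not used here.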

Additional observations from a re-analysis of the deposited data

Results flagged for a closer look

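Over the members and their sums, the named pathway genes, the library totals and the H2-DMb2 share, 2 of 50 groups of 4 libraries held a library that lay far from the other 3, where chance gives about 5%. Ciita stood at 3.36 CPM in plasma-negative replicate 4, with the nearest other plasma-negative library at 0.443 CPM. That value rests on 10 counts in the library with the fewest counts. H2-D1 stood at 887 CPM in plasma-negative replicate 1, with the nearest other plasma-negative library at 679 CPM.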

How the results depend on the processing

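No member passed the threshold under any alternative except H2-Eb1 in DESeq2, so the count of members called was 0 or 1. The sign held in all 20 alternatives for H2-Eb1 (-3.32 to -1.34), H2-DMa (0.16 to 0.41), H2-DMb1 (0.10 to 0.35), H2-DMb2 (0.08 to 0.75) and Ifi30 (0.22 to 0.51). H2-Ab1 turned to 0.38 and 0.52 with limma on log2 RPKM plus 1 and plus 0.1 and to 0.0061 with exon length offsets. Cd74 turned to -0.018 with totals only. With 1 library left out, H2-Aa ran from -1.97 to 0.11, H2-Ab1 from -0.35 to 0.55 and Cd74 from -0.20 to 0.79, and the highest value of each came without plasma-negative replicate 3. Members whose groups did not overlap then numbered 0 to 2: Cd74 and H2-DMa without plasma-negative replicate 3, H2-DMa without plasma-positive replicate 2, and H2-DMb1 without plasma-positive replicate 3. Among all tested genes, 13.2% to 16.1% did not overlap in these fits.

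The count of all genes called, 187, became 965 with DESeq2, 447 and 432 with limma on log2 RPKM plus 1 and plus 0.1, and 115 with length and GC offsets. It was 66 to 203 with 1 library left out. The 8 called pathway genes became 5 with totals only, 13 and 13 with limma on the RPKM values, 4 with length and GC offsets, and 4 to 8 with 1 library left out. Of the calls, 59.9% were higher in plasma-positive libraries, against 28.2% with totals only, 86.8% and 85.6% with limma, 86.4% with length offsets and 87.0% with length and GC offsets. Totals-only scaling moved the median of all genes to -0.11, and the limma fits and length offsets moved it to between 0.11 and 0.16. The cause of these shifts was not tested.

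The labels do not say whether same-numbered libraries share an animal or a pool. Deviations of same-numbered libraries correlated at -0.0070 to 0.0099 over 5176 genes. This does not settle the pairing, since noise of single libraries can hide a shared source. A replicate block left 74 genes called (70.3% higher), or 64 (90.6% higher) with length offsets as well. The block gave 0.34 for H2-Aa and 0.40 for H2-Ab1, and 0.36 and 0.42 with length offsets, with no member called.

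Low counts limit Ciita, with at most 10 counts per library, and low depth limits the classical chains in plasma-negative replicate 4.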
